A study of Komagataella phaffii GS115 with 2 samples.

Results

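The genes described here are 4 genes of glycerol use and hexose uptake in the methylotrophic yeast Komagataella phaffii, out of 5040 genes with a deposited value. They were chosen by locus tag: GUT1 (PAS_chr4_0783), GUT2 (PAS_chr3_0579), GTH1, also called GT1 (PAS_chr1-3_0011), and HXT1 (PAS_chr1-4_0570). The gene names and roles come from general knowledge of this yeast, since the files used here pair the tags with no product. The study asked where trimethylated lysine 36 of histone H3 (H3K36me3) lies on the genome of the strain GS115. GS115 is a laboratory strain that needs histidine. The series' design text calls it wild type, the labels name no treatment, and H3K36me3 chromatin immunoprecipitation with sequencing (ChIP-seq) was done on formaldehyde-fixed shaken cultures, giving 2 libraries of 1 group. The values used are 1 column of FPKM, in which fragments counted in a gene are divided by its length and by a total of fragments, deposited with the library of replicate 1.

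Glycerol and glucose are favoured carbon sources of this yeast, and the genes for methanol growth are kept silent while either is plentiful. Glycerol is taken up, phosphorylated by glycerol kinase (GUT1) and oxidised to dihydroxyacetone phosphate by the mitochondrial glycerol-3-phosphate dehydrogenase (GUT2), which feeds it into glycolysis. GTH1 is a transporter gene whose promoter is used for protein production under limiting glucose, and the same gene has been described as a glycerol transporter under the name GT1. HXT1 encodes a hexose transporter that takes up glucose. In budding yeast, H3K36me3 is placed on the bodies of transcribed genes by the methyltransferase Set2, which travels with elongating RNA polymerase II. The labels give no carbon source, so which of the 4 genes were transcribed in these cultures is not known from them.

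All 4 genes had H3K36me3 ChIP signal a little above the middle of the gene set, within a narrow band. HXT1 had 156 FPKM, GUT2 had 151 FPKM, GUT1 had 149 FPKM and GTH1 had 143 FPKM, against a median of 138 FPKM over all 5040 genes (quartiles 126 and 148 FPKM). Each member lay above the median of all genes, as 50.0% of genes do by construction, and HXT1, GUT2 and GUT1 lay above the upper quartile, as 25.0% of genes do. No member was more than 25% above the median (2.22% of all genes) or more than 25% below it (6.05%). There is no replicate of any value, so every comparison here is between genes within 1 set of values and carries no test. The signal was not divided by input or by an H3 ChIP, so it also holds background fragments and nucleosome density, whose part in these values was not tested.

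**Figure D1:**
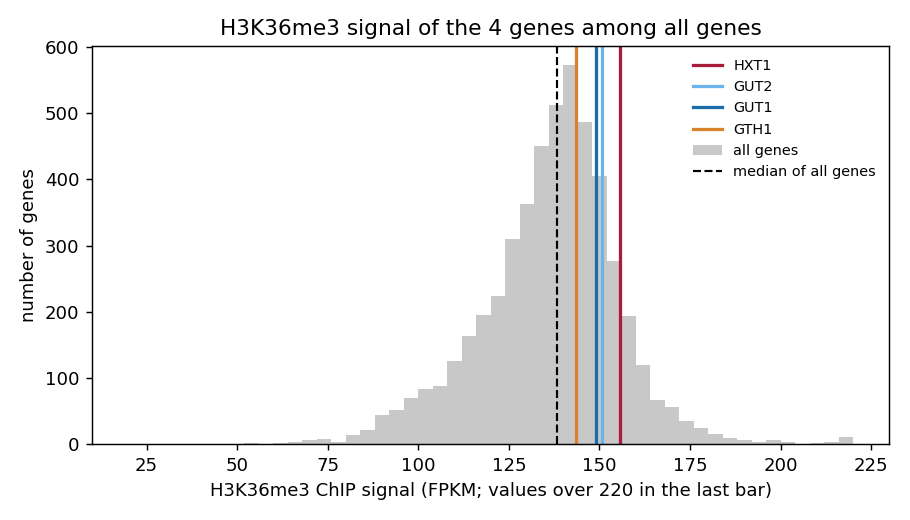
Histogram of H3K36me3 ChIP signal (FPKM, horizontal axis) over all 5040 genes (number of genes, vertical axis), with a coloured line at each of the 4 genes and a dashed line at the median of all genes. The 4 lines stand between 143 and 156 FPKM, to the right of the median at 138 FPKM and inside the bulk of the distribution.

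HXT1, the hexose transporter gene, was the highest of the 4. Its value was 12.6% above the median of all genes, a difference of 0.17 on the log2(FPKM + 1) scale, and 88.7% of genes lay below it. GUT2 was 8.87% above the median (0.12 on that scale), with 80.8% of genes below it. GUT1 was 7.86% above the median (0.11), with 77.9% of genes below it. GTH1, the other transporter gene, was the lowest of the 4 at 3.73% above the median (0.05), with 64.5% of genes below it. The median difference of the 4 genes from all genes was 0.12 on the log2 scale, where the median of all genes is 0 by definition.

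The 4 genes differed little from one another. GUT2 exceeded GUT1 by 1.40 FPKM, or 0.94%. HXT1 exceeded GTH1 by 12.3 FPKM, or 8.58%, which was the widest of the 6 gaps and came to 0.12 on the log2 scale. The 2 transporter genes were thus the outermost members of the order, and the 2 glycerol enzymes lay between them. Among the 595 other genes of 1614 to 2004 nt, the range of the members' lengths, the median gap between any 2 genes was 0.13 on the log2 scale, and 46.8% of such pairs were closer than HXT1 and GTH1. The pair GUT2 and GUT1 was closer than all but 5.70% of them. The band between GTH1 and HXT1 held 24.2% of all genes and 31.8% of the genes of 1614 to 2004 nt. With no replicate error, none of the neighbouring positions in the order HXT1, GUT2, GUT1, GTH1 can be said to differ.

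Gene length matters for this reading, because values scatter more among short genes, and the 4 genes are longer than most. The SD over genes was 24.0 FPKM under the median length of 1197.5 nt and 14.0 FPKM at or above it. GUT2 is 2004 nt long, GUT1 1866 nt, GTH1 1662 nt and HXT1 1614 nt. Set against the 200 genes nearest to it in length, HXT1 lay above 93.0% of them, at 0.97 SD over their median of 140 FPKM (SD 16.7 FPKM over those genes). GUT2 lay above 82.0% of its 200 genes, GUT1 above 78.5% and GTH1 above 61.0%. GUT2 and GUT1 stood 0.76 and 0.62 SD over the medians of their like-length genes, and GTH1 stood 0.23 SD over its own. The order of the 4 was the same as among all genes, and none was as far as 1 SD from the median of genes of its length. HXT1, GUT2 and GUT1 were nonetheless above the upper quartiles of those genes, at 147, 148 and 148 FPKM. GTH1 was below its own, at 148 FPKM. Of the 595 other genes of 1614 to 2004 nt, 54.6% lay above the median of all genes and 24.9% lay above its upper quartile, close to the shares of 50.0% and 25.0% over genes of every length.

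**Figure D2:**
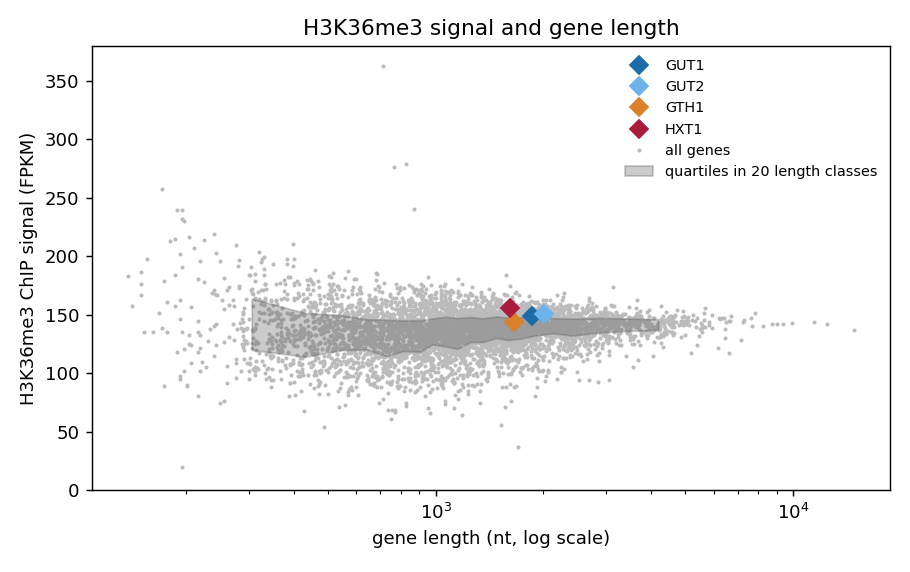
H3K36me3 ChIP signal (FPKM, vertical axis) against gene length (nt, log scale) for all 5040 genes (grey points), with the 4 genes as coloured diamonds and the middle 50% of genes in each of 20 length classes as a shaded band. The band narrows toward long genes. HXT1, GUT2 and GUT1 lie at or above its upper edge, and GTH1 lies inside it.

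Since FPKM is per length, the longest member drew the most fragments. Multiplied by length, GUT2 corresponds to 302 fragments per 1000000 counted in genes, GUT1 to 278, HXT1 to 251 and GTH1 to 238. The depth of the library is unknown, so no counting error can be attached to these numbers.

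Each of the 4 genes also had more signal than the typical gene around it. Relative to the median of the 5 genes before and the 5 genes after it in file order, which is the order along the chromosome, GUT1 was higher by 0.27 on the log2 scale, GUT2 by 0.18, GTH1 by 0.14 and HXT1 by 0.13. Across all genes this difference had a median of 0.00 and quartiles of -0.13 and 0.11, and 50.3% of genes lay above their neighbours' median. In the members' length range 55.6% of the other genes did, with a median difference of 0.02. The neighbours had medians of 142 FPKM at HXT1, 133 FPKM at GUT2, 130 FPKM at GTH1 and 123 FPKM at GUT1. The order of the 4 differences depended on the window. With 2 genes on each side the differences were 0.44 for GUT2, 0.37 for HXT1, 0.15 for GUT1 and 0.12 for GTH1, and with 1 gene on each side they were 0.54 for GUT2, 0.42 for HXT1, 0.19 for GUT1 and 0.08 for GTH1. With 10 genes on each side, fewer where the chromosome begins, they were 0.26 for GUT1, 0.16 for HXT1, 0.15 for GUT2 and 0.13 for GTH1. All 4 genes were above their neighbours' median in each of these windows, but the windows contain one another and are not separate observations. The share over all genes was calculated only for 5 genes on each side, where it was 50.3%. No annotated neighbour within 10 places overlaps any of the 4 genes in the RefSeq table. Most of these neighbours are shorter than the member: 17 of 20 at GUT1, 17 of 20 at GUT2, 11 of 15 at GTH1 and 16 of 20 at HXT1. Most genes anywhere are shorter too: of all genes, 23.1% are longer than GUT1, 19.9% than GUT2, 29.8% than GTH1 and 31.6% than HXT1. With each value taken relative to genes of like length, the differences with 5 genes on each side were 0.21 for GUT1, 0.16 for GUT2, 0.14 for GTH1 and 0.14 for HXT1.

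**Figure D3:**
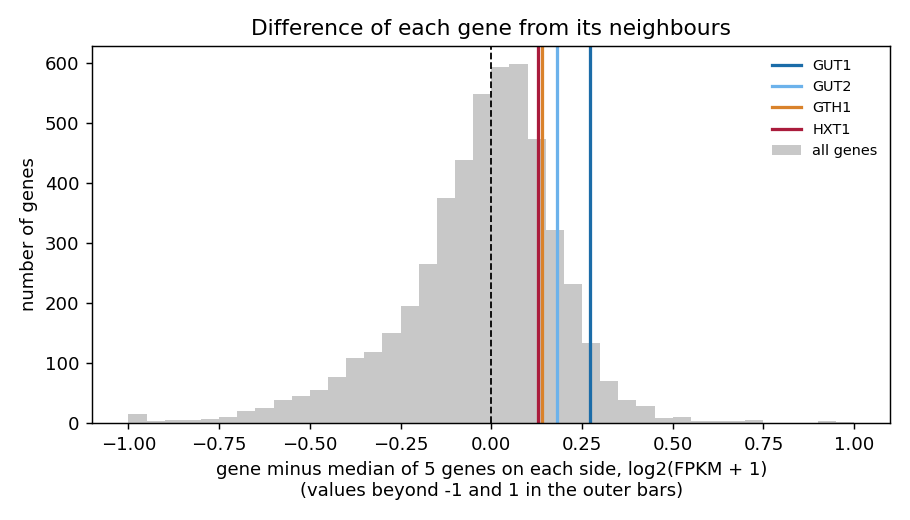
Histogram over all 5040 genes of the difference between a gene and the median of the 5 genes on each side of it (log2(FPKM + 1), horizontal axis; number of genes, vertical axis), with a coloured line at each of the 4 genes and a dashed line at 0. GUT1, at 0.27, lies far into the right side, GUT2 is at 0.18, and GTH1 and HXT1 lie next to each other at 0.14 and 0.13.

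GUT1, the glycerol kinase gene on chromosome 4, lay in a stretch of low signal but with 2 high genes directly after it. The genes before it, PAS_chr4_0781 and PAS_chr4_0782, had 115 and 109 FPKM, while GUT1 had 149 FPKM. The genes after it, PAS_chr4_0784 and PAS_chr4_0785, had 156 and 169 FPKM, and 96.9% of all genes lay below the second of these. All 5 genes before GUT1 were lower than it, with a median of 119 FPKM, and 3 of the 5 after it were. The running median over GUT1 and its 5 neighbours on each side was 125 FPKM, and only 4.84% of all such windows in the gene set were lower. With 5 genes on each side, GUT1's difference from its neighbours was larger than that of 95.2% of genes, but with 2 genes on each side it was 0.15 in place of 0.27, below those of GUT2 and HXT1. Over the 16 genes from 3 to 10 places away the values ran from 108 to 146 FPKM, with a median of 125 FPKM, all of them below GUT1.

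GUT2, the glycerol-3-phosphate dehydrogenase gene on chromosome 3, stood between markedly lower genes. Its 151 FPKM compares with 111 FPKM in PAS_chr3_0578 before it and 96.1 FPKM in PAS_chr3_0581 after it. At 2 places away, PAS_chr3_0577 had 133 FPKM and PAS_chr3_0582 had 111 FPKM. GUT2 exceeded the higher of its 2 adjacent genes by 35.2%, or 0.43 on the log2 scale. Of the 5032 genes with a gene on either side, 30 exceeded both by at least as much, GUT2 included, and among the other genes of 1614 to 2004 nt 0 of 594 did. That measure was chosen after the values of GUT2 were seen, and the adjacent genes, at 960 and 1047 nt, are shorter than the median gene; the 200 genes nearest to them in length had SDs of 20.0 and 20.3 FPKM, against 14.4 FPKM for those of GUT2. The contrast was local: the 16 genes from 3 to 10 places away ran from 121 to 172 FPKM with a median of 139 FPKM, and 6 of the 20 genes within 10 places were higher than GUT2.

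GTH1, the transporter gene near the start of chromosome 1, is the 6th annotated gene of that chromosome. It had 143 FPKM, against 133 and 131 FPKM in PAS_chr1-3_0008 and PAS_chr1-3_0010 before it and 141 and 130 FPKM in PAS_chr1-3_0013 and PAS_chr1-3_0014 after it. It was the highest of the first 10 genes of the chromosome, which ran from 68.6 to 143 FPKM with a median of 130 FPKM. Of the 15 genes within 10 places, 14 were lower than GTH1, and 5 lay over 25% under the median of the whole gene set, the lowest at 68.6 FPKM. Over all genes 6.05% lay that far under it. The 5 genes were 1497, 1128, 768, 309 and 216 nt long. Among the 200 genes nearest in length to each, 2.5%, 3%, 1%, 8.5% and 1.5% were lower, in that order. Values scatter more among short genes, and the part of length in these 5 values was not tested. Its own value was 2.36 FPKM above that of the gene after it and 12.9 FPKM above that of the gene before it. The 5 low genes lay 3 or more places away. The 11 genes from 3 to 10 places away ran from 68.6 to 146 FPKM, with a median of 130 FPKM. Among the 80 genes within 10 places of a chromosome end, whose median was 135 FPKM, 24 were higher than GTH1 and 55 were lower.

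HXT1, the hexose transporter gene in the interior of chromosome 1, lay beside 1 gene much like it and 1 gene far below it. The gene before it, PAS_chr1-4_0569, had 153 FPKM, just under the 156 FPKM of HXT1. The gene after it, PAS_chr1-4_0690 (687 nt), had 87.9 FPKM, and only 1.19% of all genes were lower than that. PAS_chr1-4_0568, 2 places before, had 101 FPKM, and PAS_chr1-4_0571, 2 places after and 11478 nt long, had 144 FPKM. The surroundings of HXT1 were the highest of the 4, with a running median over 11 genes of 143 FPKM that lay above 80.1% of such windows. The 10 genes before HXT1 had a median of 146 FPKM and the 10 genes after it a median of 129 FPKM. The 2 genes within 10 places that exceeded HXT1, at 167 and 179 FPKM, both lay before it. Over the 16 genes from 3 to 10 places away the values ran from 107 to 179 FPKM, with a median of 139 FPKM.

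**Figure D4:**
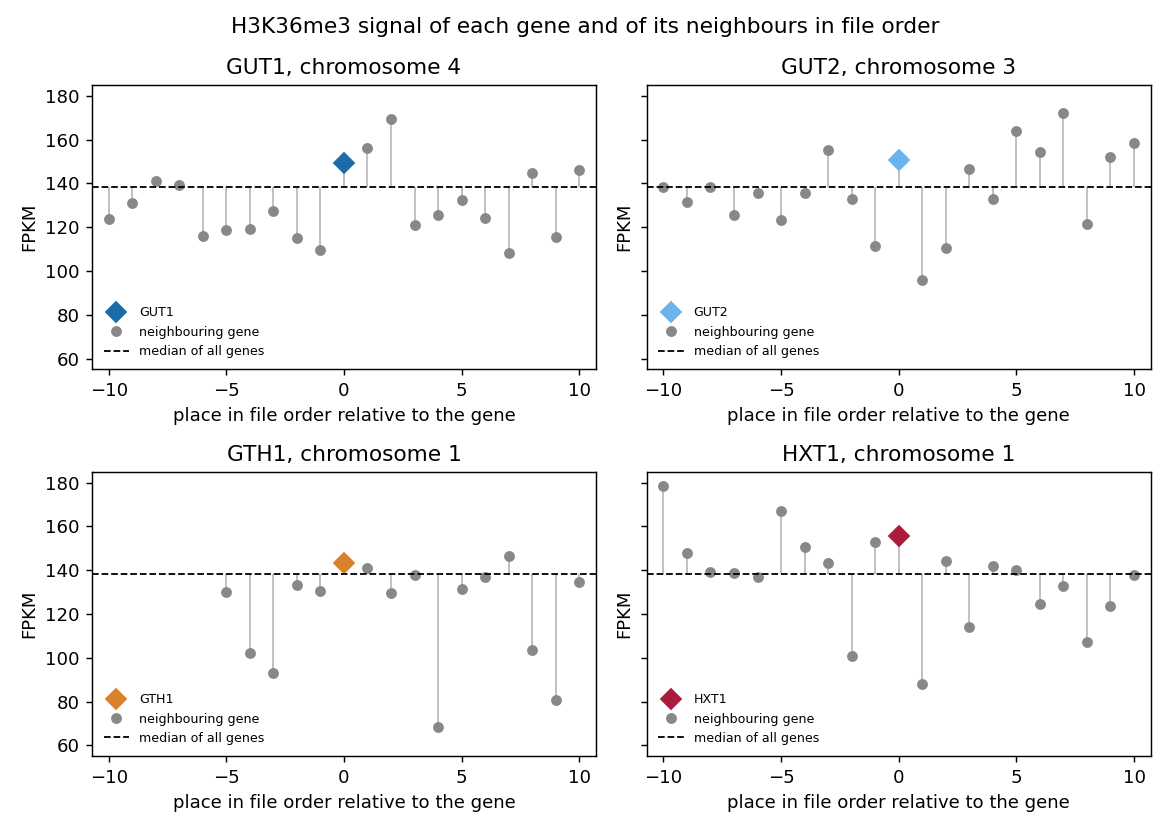
H3K36me3 ChIP signal (FPKM, vertical axis) of each of the 4 genes (coloured diamond at place 0) and of the genes up to 10 places before and after it in file order (grey points), with lines drawn to the median of all genes (dashed). GUT1 sits at the start of a short high stretch, GUT2 stands between lower genes, GTH1 has 5 genes before it because the chromosome begins there, and HXT1 lies beside a gene at 87.9 FPKM.

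Taking the adjacent genes alone, GUT2, GTH1 and HXT1 were each higher than both genes next to them, and GUT1 was higher than the gene before it and lower than the gene after it. Over all genes 31.8% were higher than both adjacent genes, and 34.0% of the other genes of 1614 to 2004 nt were. The margin was narrow for 2 of the 3: GTH1 and HXT1 exceeded their higher neighbour by 1.67% and 1.82%, against 35.2% for GUT2.

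GTH1 and HXT1 belong to the large family of sugar transporter genes, whose members can resemble each other in sequence. The sources used here do not say how fragments that map to several places were assigned, so the values of both transporter genes carry that uncertainty. Their levels within their own chromosome were the same as within all genes to about 1 percentage point, with 64.6% and 89.7% of the other genes of chromosome 1 below GTH1 and HXT1. For GUT1 on chromosome 4 the share was 75.7%, and for GUT2 on chromosome 3 it was 79.9%.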

How the data were processed

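H3K36me3 ChIP-seq was performed in wild-type GS115 cells. The authors deposited FPKM values per gene in 1 column, whose header, per the file headers, names no replicate; the sources used here do not say if the second library was pooled into it. The submitters' processing notes list, without roles, MACS2, deepTools, SAMtools, Bowtie2, Trimmomatic 0.39 and FastQC 0.12.1. Genome build, annotation and counting software were not given in the sources used here.

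RefSeq's table for ASM2700v1 held all 5040 tags in an identical order. It supplied lengths, chromosome and gene order; no coordinates are printed, since the authors' build is not named. FPKM multiplied by these lengths summed to 100.1% of 1000000, so the values are relative within the gene set. Depth is unknown, so no counting interval is given. Lengths were multiples of 3 for 92.2% of genes and for all 4 members.

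Differences are on the log2(FPKM + 1) scale. Percentages of genes below a member are plain ranks. Neighbour windows stop at chromosome ends. The neighbour difference was tested on shuffled deposited values and on a flat set of values, with known shifts added to some genes. The percentile was tested on the flat set, and the choice of like-length genes on the real lengths. The genes named are the 4 members and the 2 genes on each side of them; those 3 to 10 places away are summarised. Pathway genes were to be added from product names, but the sources used here pair the tags with no product, so none could be found. Similarity of pattern across samples was not calculated with 1 column. Members and comparisons were chosen with earlier results of these data known. Alternatives were other pseudocounts, filters and window sizes. Python 3.11.15, numpy 2.4.6, pandas 2.3.3 and matplotlib 3.10.9 were used.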

Additional observations from a re-analysis of the deposited data

How the results depend on the processing

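No paired analysis was possible because a single group with 1 deposited column leaves nothing to pair, and leaving out each replicate was not run for the same reason. Of 72 values under alternatives, 66 moved by no more than 0.1 on the log2 scale, 10 percentage points or, for counts, 1.5 times. The limit of 0.1 is of the same size as many of the differences judged, so staying within it says little about stability. For example, GTH1's difference from neighbours went from 0.14 to 0.08 with 1 gene on each side and counts as unmoved. Of the 72, 0 changed sign, but percentiles and counts cannot do so, and another pseudocount keeps the order of genes. Every gene passed the filter at 1 FPKM, which therefore tests nothing. The neighbour window mattered most. With 1 gene on each side the difference from neighbours was 0.54 for GUT2 and 0.42 for HXT1, and with 2 genes on each side it was 0.15 for GUT1, 0.44 for GUT2 and 0.37 for HXT1; these windows hold fewer genes, so the nearest ones weigh more. The number of genes more than 25% above the median was 41 among genes of at least 500 nt, against 112 among all genes. The number more than 25% below it was 242 against 305, so the count above fell by the larger share. Fewer genes enter, and the cause was not tested further. Taking each value relative to genes of like length, an alternative chosen after the data were examined, gave differences from neighbours of 0.21 for GUT1, 0.16 for GUT2, 0.14 for GTH1 and 0.14 for HXT1.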
